A study of Saccharomyces cerevisiae with 40 samples.

Results

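The 9 genes described here encode enzymes of de novo purine synthesis in budding yeast. They were chosen by name, as ADE1, ADE2, ADE4, ADE6, ADE8, ADE12, ADE13, ADE16 and ADE17, from 5557 named genes on the arrays. Strain Sigma1278b grew in minimum medium with 3% glucose on ammonium sulfate, alanine, arginine, asparagine, aspartate, citrulline, GABA, glutamate, glutamine, isoleucine, leucine, methionine, ornithine, phenylalanine, proline, serine, threonine, tryptophan, tyrosine or valine as the nitrogen source. Each source was at 10 mM, except tryptophan at 5 mM, and each was compared with cells on 10 mM urea. All cultures had grown for at least 10 generations and were taken in exponential growth at low density. PolyA RNA from a source and from urea shared each of the 40 arrays in different dyes, and every source had 2 arrays.

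Yeast builds the purine ring step by step on phosphoribosyl pyrophosphate, with nitrogen from glutamine, aspartate and glycine and carbon from folate-bound formyl groups, up to inosine monophosphate. A short branch then leads to adenosine monophosphate and another to guanosine monophosphate. Many genes of the pathway are known to be activated by the transcription factors Bas1 and Pho2 (Bas2) when pathway intermediates build up and to be less active when adenine is supplied, and Gcn4, the regulator of amino acid synthesis genes, is known to act on several of them.

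Values are log2 ratios of source over urea, so that a negative value means less RNA than on urea. A fitted value is the estimate for a source from a limma fit over all 40 arrays with a dye term, given ± SE (n = 2 arrays per source). The SE comes from the residual spread of the gene over the whole fit, so both array values are given beside it. A gene was called higher or lower where the p-value adjusted by Benjamini-Hochberg over all genes tested passed 0.05. Separate cultures behind the 2 arrays are not stated in the labels, and p-values then measure only array-to-array spread, which may be technical. Precision is limited by how few arrays each source had. All sources share the urea control, and the labels do not say whether its RNA came from a single culture.

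All 9 genes passed the filter of values on at least 30 arrays. Of these, 8 had values on all 40 and ADE13 on 35. Each gene had a pair of spots in each of the 2 deposited tables, and the spots of a gene correlated over arrays at 0.835 (ADE17) to 0.988 (ADE4). The spots of 7 members had the same probe numbers in both tables, whereas those of ADE16 and ADE17 did not, as for 1023 of 5411 genes in both tables. ADE16 and ADE17 encode closely related isozymes, and cross-hybridisation between them was not tested.

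The purine genes were not all called in the same direction on a source: on ammonium ADE16 was higher than urea and ADE6 and ADE1 lower. ADE4, ADE8, ADE6 and ADE1, grouped after their values were seen, each varied among sources and were highest on methionine, and ADE13 varied as well. ADE4, ADE6 and ADE1 were called lower than urea on some sources and ADE8 on none. For ADE2, ADE12, ADE16 and ADE17 no variation among sources passed the test, which does not show that their response differed. Differences were small: the highest fitted value was 0.90 ± 0.14 for ADE8 on methionine (1.87-fold) and the lowest -0.62 ± 0.17 for ADE4 on ornithine (0.651-fold). Of 175 tests of a member on a source with both arrays, 26 were higher and 9 lower than urea. Over all genes and sources, 10.1% of tests were higher and 9.42% lower, 19.5% in all. The members' 20% in all thus lay near the background, with 14.9% higher and 5.14% lower.

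Variation among the 20 sources, in which urea cancels, was tested with a moderated F. It passed for ADE1 (F = 5.74, adjusted p = 0.000592), ADE6 (5.47, 0.000831), ADE4 (4.28, 0.00423), ADE8 (3.78, 0.00904) and ADE13 (3.37, 0.0253). These are 5 of 9 members, beside 24.7% of the 3920 genes with a value for every source. The F values of ADE17 (1.56), ADE16 (1.53), ADE12 (1.40) and ADE2 (1.33) did not pass. The members' median F was 3.37 and that of all genes 1.76. Without both methionine arrays, a check chosen after the values were seen, ADE6, ADE1 and ADE4 still passed (adjusted p = 0.00121, 0.00306 and 0.0198). ADE8 (0.0704) and ADE13 (0.0638) did not. The ADE13 call also ended without methionine array 2 alone (F = 2.88, adjusted p = 0.0547), and without both tryptophan and tyrosine (F = 2.82, adjusted p = 0.0625). Without a dye term in the fit, ADE8 (adjusted p = 0.0935) and ADE13 (0.431) did not pass. The F of ADE13 took in arginine, glutamine, serine, threonine and tyrosine with a value on 1 array each.

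**Figure D1:**
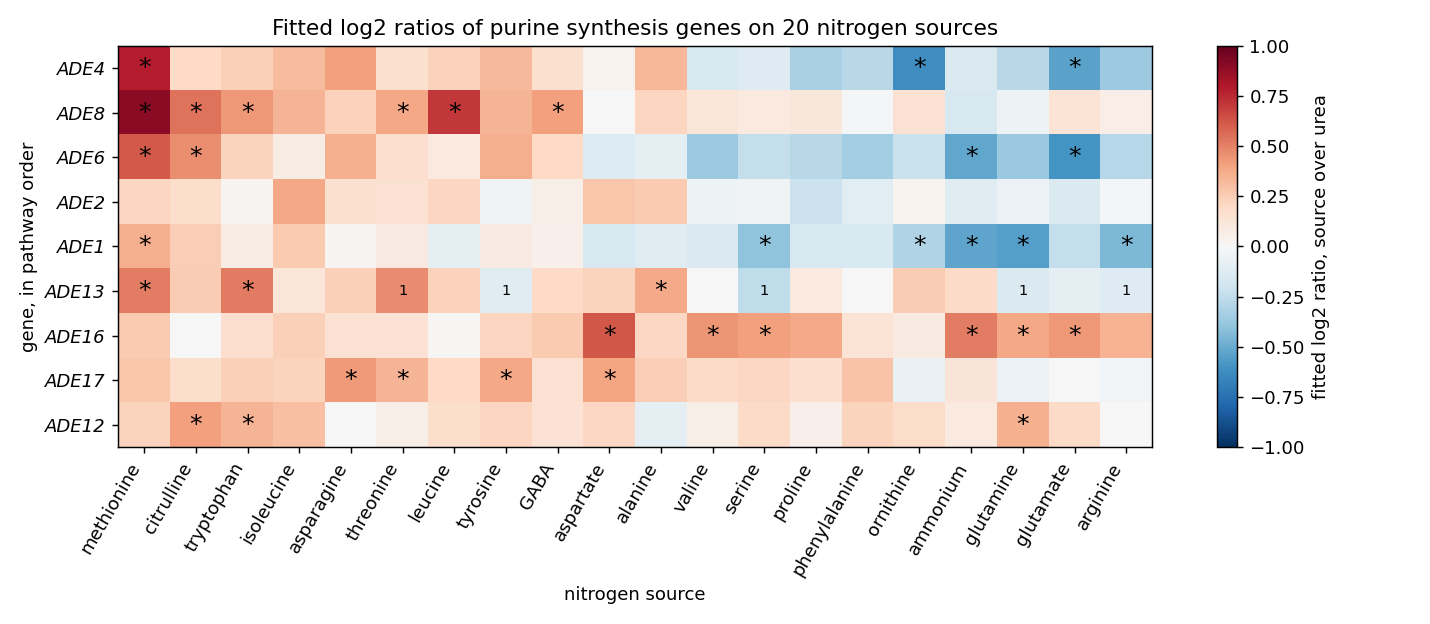
Fitted log2 ratios of source over urea for the 9 genes in pathway order (rows) on 20 nitrogen sources (columns, ordered by the mean of the 9 genes). Red is higher and blue lower than urea, asterisks mark values that passed the test and "1" marks values from a single array, which were not tested. ADE4, ADE8, ADE6 and ADE1 run from red on methionine toward blue or near 0 at the right end, and ADE16 is at or above 0 on all 20 sources.

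ADE4 encodes the amidotransferase that commits phosphoribosyl pyrophosphate to the pathway, with glutamine as nitrogen donor. Its single arrays spanned -0.80 to 1.08 with a median of 0.01, the widest spread of fitted values among the members (SD 0.36 over sources). On methionine the arrays read 0.49 and 1.08, and the fitted value was 0.79 ± 0.17 (adjusted p = 0.00127), 1.73-fold. Next in order were asparagine (0.22 and 0.59), alanine (0.02 and 0.64) and tyrosine (-0.13 and 0.95), which did not pass. The arrays of alanine and tyrosine thus lay far apart for this gene. At the other end ornithine read -0.80 and -0.44 (fitted -0.62 ± 0.17, adjusted p = 0.012) and glutamate -0.35 and -0.72 (fitted -0.54 ± 0.17, adjusted p = 0.0277). Arginine was at -0.38 and -0.34 without passing (fitted -0.36). The methionine call ended without array 2 (0.56, adjusted p = 0.169), as did the glutamate call (-0.25, 0.602). The ornithine call ended without array 1 (-0.52, 0.227) and without array 2 (-0.72, 0.0897).

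ADE8, the glycinamide ribotide transformylase gene, whose enzyme adds a folate-borne formyl group, was called higher on 6 sources and lower on none. Methionine gave 1.07 and 0.74 (fitted 0.90 ± 0.14, adjusted p = 1.81e-05), a call that held without either array (0.83 and 0.97). Leucine followed with 0.92 and 0.49 (fitted 0.71 ± 0.14), citrulline with 0.31 and 0.77 (0.54 ± 0.14) and tryptophan with 0.62 and 0.05 (0.43 ± 0.14). GABA read 0.56 and 0.25 (0.41 ± 0.14) and threonine 0.53 and 0.25 (0.39 ± 0.14). ADE8 was lowest on ammonium (-0.12 and -0.20, fitted -0.16), where it did not pass. The lower methionine array lay below the higher arrays of leucine and citrulline, and 31 of the 40 ADE8 values were above 0. Array 1 was above array 2 on 16 of 18 sources, and the dye term passed (0.10 ± 0.03, adjusted p = 0.0124). The leucine call ended without array 1 (0.59, adjusted p = 0.074), as did those on citrulline without array 2 (0.19) and tryptophan without array 1 (0.15). With a replicate block the tryptophan call ended too (0.33, adjusted p = 0.085). The GABA and threonine calls ended without either array (0.35 to 0.47).

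ADE6 encodes the synthetase that takes a further nitrogen from glutamine. It rose on methionine, with arrays at 0.43 and 0.80 (fitted 0.61 ± 0.15, adjusted p = 0.00293), and on citrulline, at 0.71 and 0.22 (0.47 ± 0.15, adjusted p = 0.0442). It fell on glutamate, where the arrays read -0.20 and -1.01 (-0.60 ± 0.15, adjusted p = 0.00464), and on ammonium, at -0.27 and -0.77 (-0.52 ± 0.15, adjusted p = 0.0138). Between these ends lay glutamine (-0.29 and -0.45) and valine (-0.15 and -0.58), both below 0 on both arrays without passing. Array 1 was above array 2 on 14 of 18 sources, and the dye term was 0.14 ± 0.04 (adjusted p = 0.00251). The methionine (0.27) and glutamate (-0.32) calls ended without array 2. The citrulline (0.35 and 0.58) and ammonium (-0.64 and -0.40) calls ended without array 1 and without array 2. The citrulline call also ended when the dye term was replaced by a replicate block (adjusted p = 0.0751).

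ADE1, the gene of the synthetase that attaches aspartate to the growing ring, was the member that fell most often, on 5 sources. On glutamine its arrays read -0.63 and -0.47 (fitted -0.55 ± 0.11, adjusted p = 0.000479), 0.683-fold, and on ammonium -0.57 and -0.48 (-0.53 ± 0.11, adjusted p = 0.001). Arginine gave -0.49 and -0.41 (-0.45 ± 0.11), serine -0.50 and -0.31 (-0.40 ± 0.11) and ornithine -0.38 and -0.22 (-0.30 ± 0.11, adjusted p = 0.0466). On all 5 sources both arrays lay below 0. Methionine was the only source where ADE1 passed as higher, at 0.26 and 0.47 (0.36 ± 0.11, adjusted p = 0.0151). The glutamine (-0.52 and -0.58) and ammonium (-0.53 and -0.52) calls held without either array. The arginine (-0.46 and -0.45), serine (-0.35 and -0.45), ornithine (-0.26 and -0.34) and methionine (0.43 and 0.30) calls ended without array 1 and without array 2. With the replicate block the ornithine call ended (adjusted p = 0.0529).

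**Figure D2:**
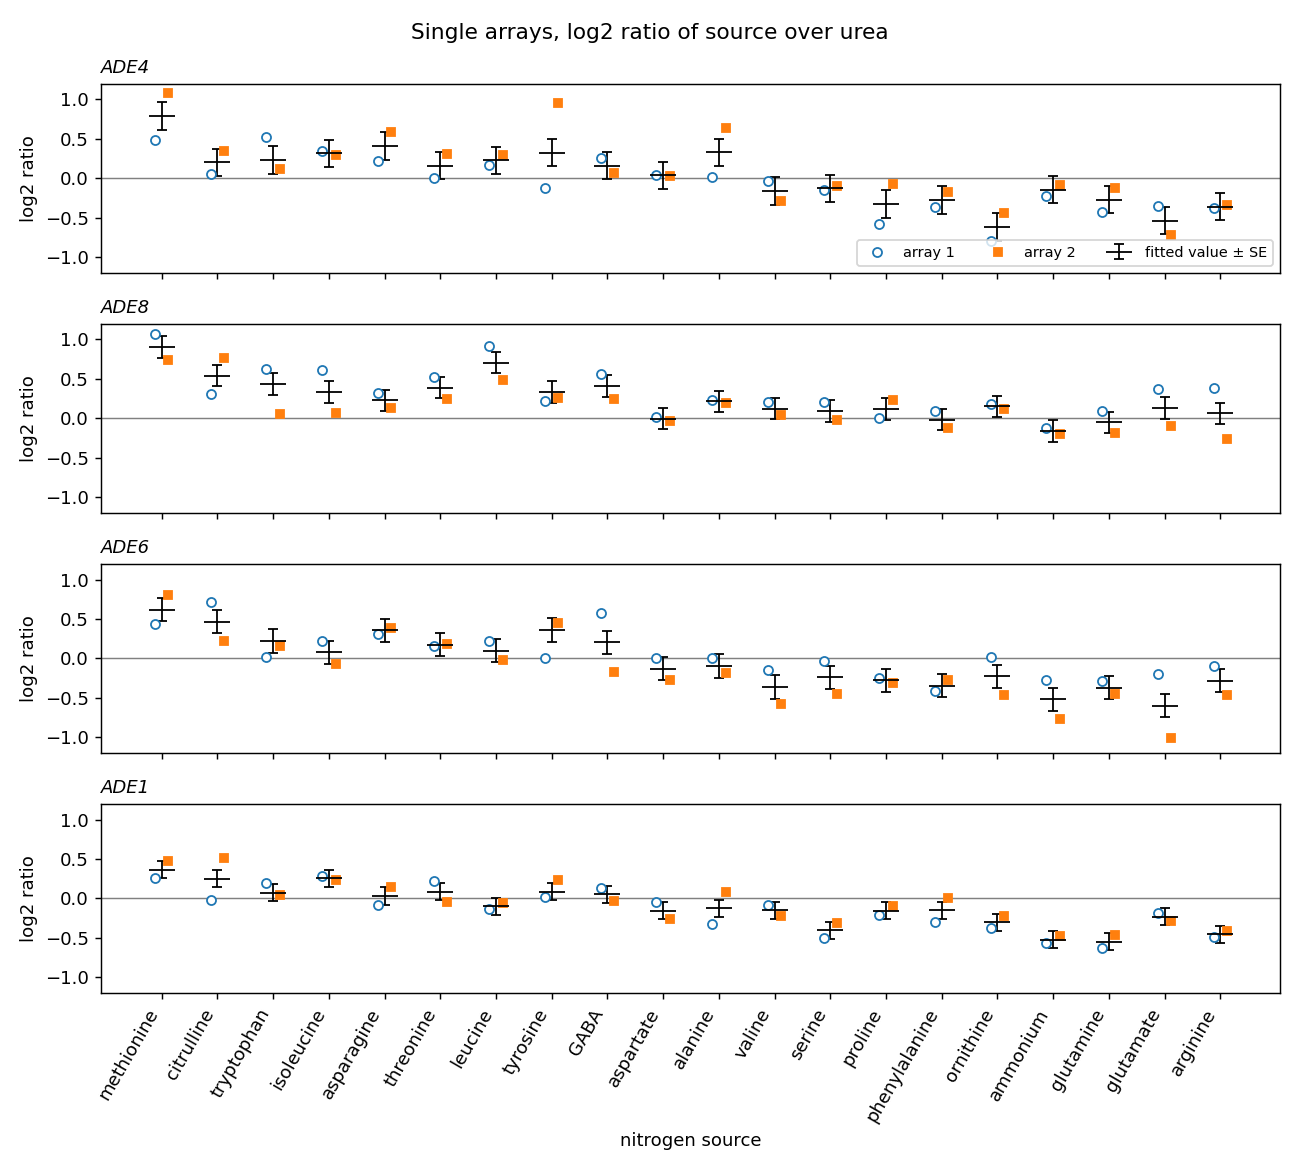
Single-array log2 ratios of source over urea for ADE4, ADE8, ADE6 and ADE1 on 20 nitrogen sources, ordered by the mean of the 9 genes. Open circles are array 1, squares array 2, and black bars the fitted value ± SE. All 8 readings of methionine, genes read on the same 2 arrays, lie above 0. All readings of ammonium and of arginine lie below 0 except ADE8 array 1 on arginine (0.39).

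ADE2 and ADE13 act before and after ADE1 in the pathway. ADE2, which encodes the carboxylase of aminoimidazole ribotide, passed on no source at a range of arrays from -0.30 to 0.66. Its highest fitted value was 0.39 on isoleucine (0.52 and 0.26) and its lowest -0.21 on proline (-0.30 and -0.12). ADE13 encodes adenylosuccinate lyase, which serves both the ring-building route and the step to adenosine monophosphate. It rose on tryptophan, with arrays at 0.62 and 0.69 (fitted 0.52 ± 0.11, adjusted p = 0.00224), on methionine, at 0.35 and 0.67 (0.51 ± 0.11, adjusted p = 0.00122), and on alanine, at 0.09 and 0.67 (0.38 ± 0.11, adjusted p = 0.0133). The alanine arrays lay far apart. Arginine, glutamine, serine, threonine and tyrosine had a value on 1 array each and were not tested. Array 1 was above array 2 on only 1 of 14 sources, and the dye term was -0.14 ± 0.03 (adjusted p = 0.000633). Without array 2 the ADE13 calls ended on alanine (0.22), methionine (0.48) and tryptophan (0.48).

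ADE16 and ADE17 encode the isozymes of the last steps to inosine monophosphate, a formyl transfer and ring closure. ADE16 was called higher on 6 sources, with fitted values above 0 on all 20. Aspartate led with arrays at 0.69 and 0.55 (fitted 0.62 ± 0.13, adjusted p = 0.00151), followed by ammonium (0.64 and 0.38, fitted 0.51), valine (0.60 and 0.28, 0.44), glutamate (0.39 and 0.48, 0.43), serine (0.48 and 0.34, 0.41) and glutamine (0.33 and 0.45, 0.39). On all of these but aspartate, the fitted values of ADE4, ADE6 and ADE1 lay below 0. ADE17 rose on asparagine (0.30 and 0.55, fitted 0.42 ± 0.12, adjusted p = 0.00861), aspartate (0.26 and 0.53, 0.39), tyrosine (0.10 and 0.74, 0.38) and threonine (0.22 and 0.46, 0.34). Aspartate was the only source on which both isozyme genes passed. Every ADE16 call ended without array 1 and without array 2 (0.25 to 0.63, adjusted p = 0.0504 to 0.485). The ADE17 calls on asparagine (0.33) and tyrosine (0.07) ended without array 2, and those on aspartate (0.50 and 0.29) and threonine (0.43 and 0.26) without either.

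ADE12, the adenylosuccinate synthase gene, starts the branch from inosine to adenosine monophosphate with aspartate. It rose on citrulline, with arrays at 0.51 and 0.31 (fitted 0.41 ± 0.11, adjusted p = 0.0181), on glutamine, at 0.42 and 0.30 (0.36 ± 0.11, adjusted p = 0.0176), and on tryptophan, at 0.59 and 0.20 (0.34 ± 0.11, adjusted p = 0.0334). Glutamine thus gave a higher value for ADE12 and ADE16 and a lower one for ADE1. Of its 40 arrays, 35 lay above 0. The calls ended on citrulline (0.25) and tryptophan (0.15) without array 1, and on glutamine without array 1 (0.24) and without array 2 (0.47).

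**Figure D3:**
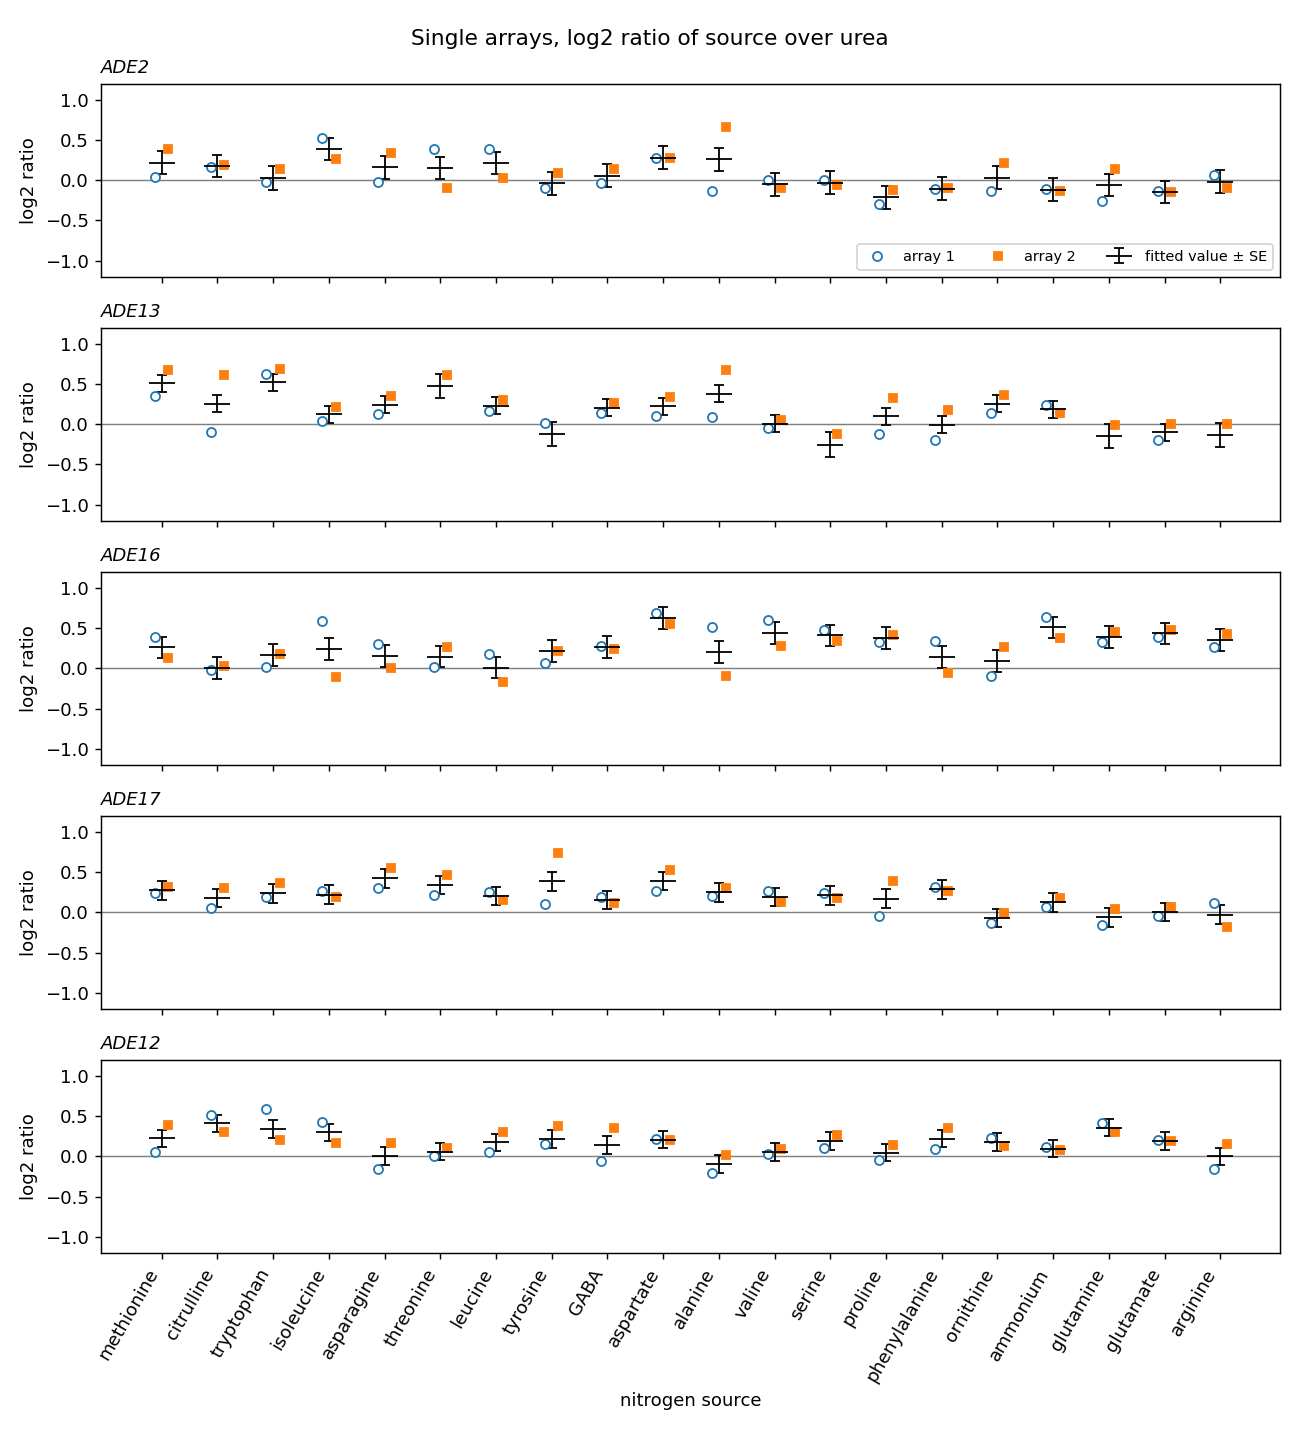
Single-array log2 ratios of source over urea for ADE2, ADE13, ADE16, ADE17 and ADE12 on 20 nitrogen sources, in the same order and with the same symbols (open circles array 1, squares array 2, bars fitted value ± SE). ADE13 lacks an array on 5 sources, and the arrays of ADE16 differ most on isoleucine (0.59 and -0.11) and alanine (0.51 and -0.10).

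Methionine had the highest mean of the members and the most members called higher, although it did not differ from every other source (below). All 18 of its member readings were above 0. They are 9 genes on the same 2 arrays and not separate replicates. Over all sources ADE12, ADE16 and ADE17 read above 0 on 35, 34 and 34 of 40 arrays. On methionine 5 of 9 members were called higher, beside 12.7% of all genes. No other source had both arrays of all 9 members on the same side of urea. Tryptophan came next, with 17 of 18 readings above 0 and 3 of 9 members called higher (10.3% of all genes). On citrulline 15 of 18 readings lay above 0 and 3 of 9 members were called higher (5.25% of all genes). Over all genes the 2 citrulline arrays correlated at 0.37, the lowest of the 20 sources, beside 0.75 on methionine. The members' mean was 0.46 on methionine, 0.28 on citrulline, 0.25 on tryptophan and 0.25 on isoleucine, and lowest on arginine (-0.10), glutamate (-0.09) and glutamine (-0.08). For arginine and glutamine ADE13 entered this mean from 1 array. On ammonium, ADE6 and ADE1 were lower and ADE16 higher, 2 and 1 of 9 members, where 10.7% and 10.2% of all genes passed. On glutamate, ADE4 and ADE6 were lower and ADE16 higher, where 9.87% and 10.5% passed. On serine, ADE16 was higher and ADE1 lower (12.7% and 11.3% of all genes), and on glutamine ADE12 and ADE16 were higher and ADE1 lower (12.1% and 12.9%). On ornithine ADE4 and ADE1 were lower (10.1%), and on arginine ADE1 alone was (8.91%). Aspartate (11.3% of all genes higher) and threonine (12.7%) each had 2 members higher. A single member was higher on alanine (9.57%), asparagine (10.4%), GABA (10.2%), leucine (10.4%), tyrosine (8.43%) and valine (9.48%). No member was called in either direction on isoleucine, phenylalanine or proline, where 9.49%, 20.4% and 17.2% of all genes passed.

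Sources were then compared with each other in the same fit, where urea cancels. Over the 190 pairs of sources, 103 of 1625 member tests passed (6.34%), beside 4.2% over all genes. Of the 103, 96 belonged to ADE1 (31), ADE6 (29), ADE4 (19) and ADE8 (17). ADE13 had 6, ADE16 had 1 (aspartate above citrulline), and ADE2, ADE12 and ADE17 had 0. Genes tested in all 190 pairs had a median of 3. Methionine took part in 45 of the 103 and was the higher source in every one of them. It exceeded 12 sources for ADE8, 11 for ADE6, 10 for ADE1, 9 for ADE4 and 3 for ADE13. No member differed between methionine and GABA, citrulline, isoleucine, leucine, threonine, tryptophan or tyrosine. Citrulline exceeded 9 sources for ADE6 and 5 for ADE1. Among the low sources, ornithine was below 7 others for ADE4, glutamine below 7 for ADE1, and glutamate below 6 for ADE6. Neighbouring sources in a member's own order, which the ranking places closest, had 0 calls in 19 tests for each of 8 genes and 0 in 13 for ADE13, so no order between neighbours can be read. Without both methionine arrays, 70 calls were made over the remaining pairs.

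**Figure D4:**
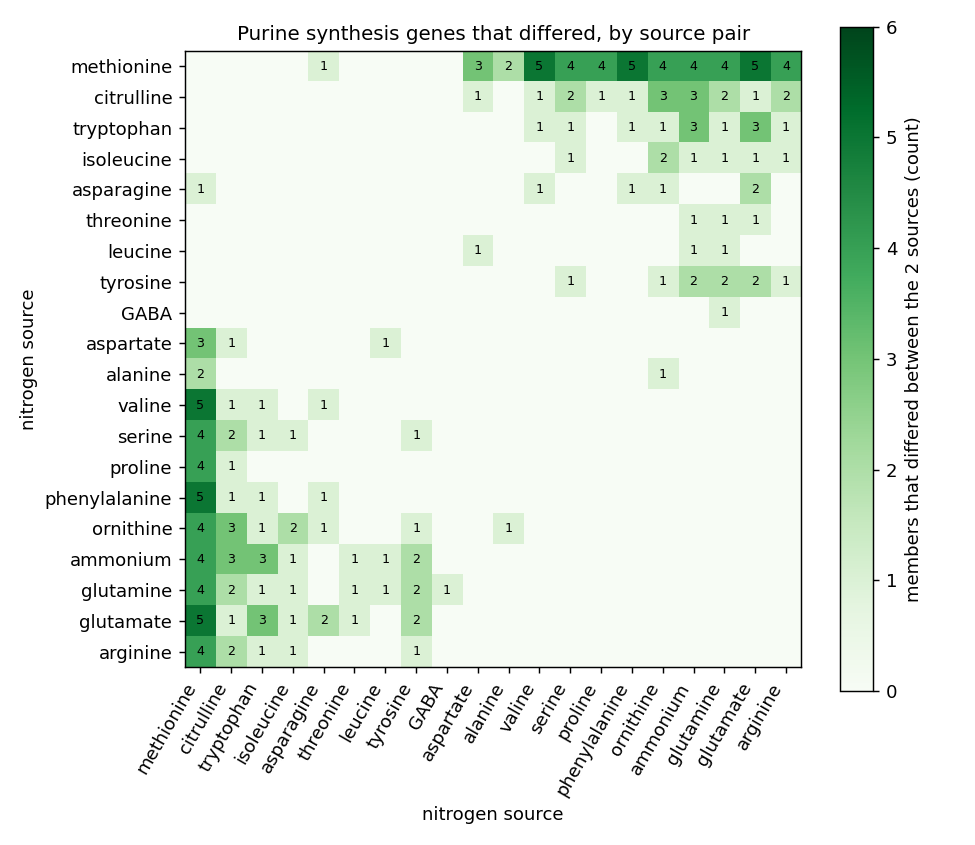
Number of the 9 genes that differed between each pair of the 20 nitrogen sources, ordered on both axes by the mean of the 9 genes, with darker green for more genes and empty cells for 0. The highest counts are for methionine, 5 genes against valine, phenylalanine and glutamate, and no pair within the lower 11 sources from aspartate to arginine differed except alanine and ornithine, by 1 gene.

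In 9 pairs of related molecules 3 of 76 member tests passed, beside 2.08% over all genes in these pairs. Citrulline exceeded arginine for ADE1 by 0.70 ± 0.15 (adjusted p = 0.00691) and for ADE6 by 0.75 ± 0.21 (adjusted p = 0.0367), on sources that differ by a carbamoyl in place of an amidino group. The ADE1 difference ended without citrulline array 2 (0.47, adjusted p = 0.216) and without arginine array 2 (0.70, 0.0563), and the ADE6 difference without any of the 4 arrays involved (0.63 to 0.87, 0.0769 to 0.191) and with the replicate block (0.0678). Tryptophan exceeded phenylalanine for ADE13 by 0.53 ± 0.15 (adjusted p = 0.0484), a call that ended in 28 of 40 fits that left out an array (0.47 to 0.59). With array weights all 3 differences missed the threshold (adjusted p = 0.0997 for ADE1, 0.26 for ADE6 and 0.111 for ADE13). The weights came out equal for the 2 arrays of each source, so they could count a source less but not a noisier array. Each array had 0.639 on citrulline, 0.555 on arginine, 0.499 on tryptophan and 1.16 on phenylalanine. Over all genes, 4.71% differed between citrulline and arginine and 5.34% between tryptophan and phenylalanine. The 2 arrays of a source correlated over all genes at 0.37 on citrulline and 0.47 on arginine, beside 0.81 on glutamine, the highest. Tryptophan was given at 5 mM and phenylalanine at 10 mM. Both tryptophan arrays had urea in Cy5, so the ADE13 difference depends on the dye term. Without that term it was 0.66 and missed the threshold (adjusted p = 0.154). Glutamine and its acid glutamate gave no call in the 8 members tested (0.731% of all genes). Their ADE1 difference was -0.32 (95% interval -0.629 to -0.002, adjusted p = 0.886) and that of ADE4 0.26 (-0.24 to 0.76). Asparagine minus aspartate was 0.49 for ADE6 (0.06 to 0.92, adjusted p = 0.359) and -0.47 for ADE16 (-0.86 to -0.08, adjusted p = 0.336). Those sources differed in 0.702% of all genes. Threonine minus serine was 0.49 for ADE1 (0.18 to 0.81, adjusted p = 0.0823), where 3.43% of all genes differed, and tyrosine minus phenylalanine was 0.71 for ADE6 (0.27 to 1.14, adjusted p = 0.0848), where 2.15% did. Ornithine minus arginine (0.0962% of all genes), leucine minus isoleucine (1.19%) and valine minus isoleucine (0.265%) gave no member call either. Intervals of this width leave room for differences as large as those called elsewhere.

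Glutamine and aspartate, which give nitrogen to the purine ring, were compared with the other 18 sources. No member of 8 differed after adjustment (0% of all genes did), and ADE16 had an unadjusted p under 0.05, with a mean of 0.51 against 0.25. For serine and threonine, which yeast can turn into glycine, 0 of 8 members differed, with 0 at an unadjusted p under 0.05 and 0.0674% of all genes called. The 7 amino acids degraded to fusel alcohols (leucine, isoleucine, valine, methionine, phenylalanine, tyrosine and tryptophan) gave 0 of 9 members beside 2.92% of all genes. Of these, 2 members, ADE1 (mean 0.05 against -0.19) and ADE8 (0.40 against 0.16), had an unadjusted p under 0.05 by limma (adjusted p = 0.169 and 0.194).

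The mean over all 20 sources against urea was called higher for ADE16 (0.27 ± 0.03), ADE8 (0.25 ± 0.03), ADE17 (0.19 ± 0.03), ADE12 (0.17 ± 0.02) and ADE13 (0.15 ± 0.03) and lower for ADE1 (-0.11 ± 0.02). These 5 and 1 of 9 members stand beside 34.8% and 38.4% of all genes. In either direction 73.2% of all genes passed, so that a shift as such was as common elsewhere. The members leaned higher, with a median shift of 0.148 beside -0.0103 for all genes. The ADE13 mean included the sources on which it had a value on 1 array. For 18 sources the deposited table, the dye orientation and the array number coincide. A dye bias that differed in sign between tables cannot be told apart from such a shift.

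Likeness between members was described by correlations over the 20 fitted values. Any pair of ADE4, ADE8, ADE6 and ADE1 correlated at 0.72 to 0.85. The correlations are given without a test. Fitted values of a source share the same arrays, so the pairs were also read across separate arrays, with a gene on array 1 and another on array 2 over 18 sources, and r was then 0.53 to 0.78 in all 12 readings. ADE16 ran the other way, with r of -0.61 to ADE8 and -0.58 to ADE6 over the fitted values and -0.47 to -0.29 across separate arrays. To ADE4 the separate readings were -0.50 and 0.002. To the same 4 genes, ADE2 had r of 0.52 to 0.68 and ADE13 of 0.56 to 0.58. ADE17 had r of 0.70 to ADE4, 0.585 to ADE1, 0.555 to ADE6 and 0.28 to ADE8, and ADE12 of 0.07 to 0.24. Across separate arrays these readings were 0.24 to 0.47 for ADE2, 0.09 to 0.59 for ADE13 and -0.05 to 0.49 for ADE17. A gene's own array 1 and array 2 correlated over 18 sources at 0.76 for ADE4, 0.72 for ADE1, 0.70 for ADE6 and 0.62 for ADE8. The corresponding r was 0.17 for ADE16 and 0.10 for ADE2, whose orders of sources were thus hardly repeatable.

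**Figure D5:**
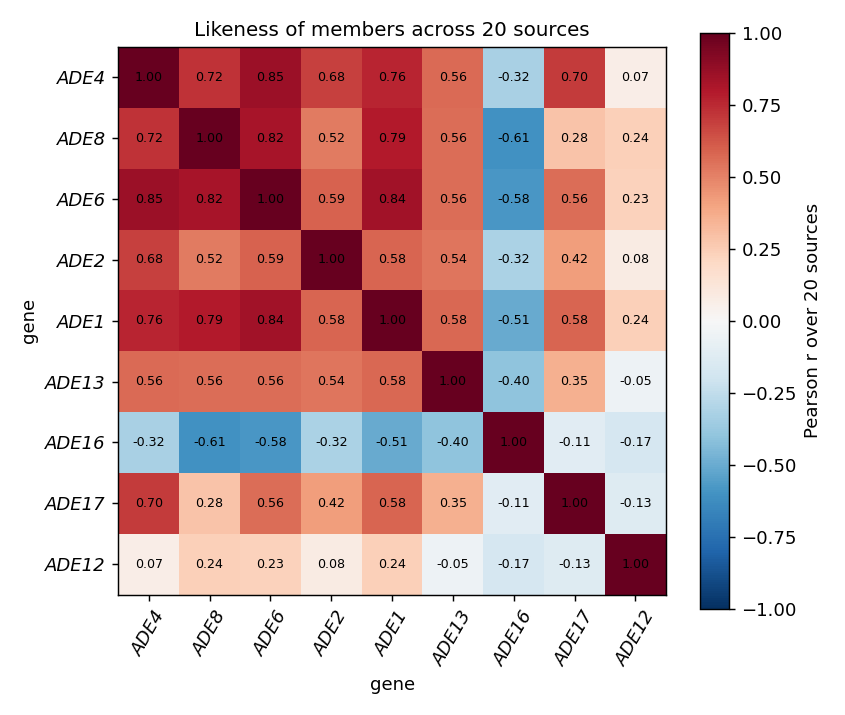
Pearson r between members over the 20 fitted log2 ratios of source over urea, with genes in pathway order on both axes and red for positive and blue for negative r. ADE4, ADE8, ADE6 and ADE1 form a red group (0.72 to 0.85), and the row of ADE16 is blue throughout (-0.61 to -0.11).

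Other genes of purine metabolism were read in lists. Among further genes known as targets of Bas1 and Pho2, 25 of 91 tests over 5 genes were higher and 10 lower, and ADE5,7 matched no probe. Over all genes and sources, as above, 10.1% of tests were higher and 9.42% lower. MTD1, a folate dehydrogenase gene, rose on methionine by 1.04 ± 0.16. GCV2, of the glycine cleavage system, rose on methionine (0.76 ± 0.18) and fell on 7 sources, lowest on glutamine (-1.09). SHM2, the serine hydroxymethyltransferase gene, rose most on citrulline (0.70) and GCV3 on tyrosine (0.69). In the guanine branch 21 of 74 tests over 4 genes were higher and 8 lower. IMD4, an inosine monophosphate dehydrogenase gene, rose on 13 of 15 sources, most on methionine (1.63 ± 0.17), and GUA1, the guanosine monophosphate synthase gene, fell on 4, lowest on glutamate (-0.61). IMD2 rose most on tryptophan (1.19 ± 0.15). The IMD genes are close in sequence, and cross-hybridisation was not tested. In salvage and interconversion, 9 of 185 tests over 10 genes were higher and 43 lower. AAH1, the adenine deaminase gene, fell on all 16 sources where it was tested (-1.93 on ammonium to -0.51 on citrulline), and XPT1, a xanthine phosphoribosyltransferase gene, on 12.

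Among 3911 other genes with a value for every source, the 10 most like the members' mean over 20 sources had r of 0.81 to 0.88. They were DED81 and ILS1, which encode aminoacyl-tRNA synthetases, ASC1, RPS25B and RPL11B of the ribosome, the amino acid synthesis genes LEU9, SER1 and HIS7, the aromatic transaminase gene ARO8, and GUA1. These values share arrays with the members. The mean did not follow all members alike. Their r to it was 0.932 for ADE4, 0.925 for ADE6 and 0.901 for ADE1, but 0.219 for ADE12 and -0.434 for ADE16. Among the regulators, GCN4 RNA fell on 9 of 20 sources tested, among them asparagine (-1.15), glutamine (-0.94) and ammonium (-0.91), and PHO2 RNA on 2 of 13. Over all genes and sources 9.42% of tests were lower. The proteins of these regulators and their activity were not measured. BAS1 had too few values to be tested.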

How the data were processed

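The authors deposited 1 log2 ratio per spot. The labels name the dye of each channel, and the direction, Cy5 over Cy3, was inferred: PUT1 and PUT2 on proline, CAR1 and CAR2 on arginine, UGA1 and UGA4 on GABA, CHA1 on serine and threonine and ARO9 on tryptophan and phenylalanine, genes known to be induced by these sources, were above 0 in 20 of 20 array readings (0.60 to 5.54). Base 2 is an assumption; for the normalization, nothing was given in the sources used here, and medians per array were near 0 (-0.0077 to 0.0091). Each of the 2 tables has 12800 probes, of which 10890 and 11188 named 1 gene (GEO's platform annotation, symbols updated by RefSeq gene ID), none several, and 1910 and 1612 none. An array gave values for 3294 to 5218 genes. Spots were averaged per gene and ratios turned to source over urea. Urea was labelled with Cy5 throughout for tryptophan and tyrosine, and the other 18 sources had opposite dyes.

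Of 5557 genes, the 4332 measured on 30 or more of 40 arrays were fitted by least squares, with a term for each source signed by orientation and an intercept for the dye, and variances were moderated across genes as in limma 3.58.1 (R 4.3.3). A source was tested against urea or another source for a gene only with both arrays. The F test and the mean over sources also used sources with a value on 1 array. Classes were compared with limma on the fitted values, the source being the unit. Adjustment was by Benjamini-Hochberg over all genes per comparison, threshold 0.05, two-sided. The fit was checked against lmFit and eBayes and tested on simulated data. Deviations of same-numbered arrays from their source means correlated over 0.1 in all 153 pairs of sources (0.127 to 0.654). The dye term was not removed from these deviations, so they hold any dye bias of a gene. The check thus cannot tell a pairing of arrays from dye or table. The array numbers coincide with table and dye orientation, so for 18 sources the replicate block equals the dye term. Alternatives changed the dye term, filter, centring, spot summary, weights and arrays used. Named genes were all 9 members, up to 4 examples per list and the 10 genes most like the members' mean. GCN4, PHO2 and BAS1 were the list of regulators. Members and lists were chosen with earlier results of these data known. No sequences are shown.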

Additional observations from a re-analysis of the deposited data

Results flagged for a closer look

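Responses to related sources differed by a test of the difference itself in 3 of 76 member tests, beside 2.08% over all genes. ADE1 was 0.70 higher on citrulline than on arginine (log2 scale, adjusted p = 0.00691), ADE6 was 0.75 higher on citrulline than on arginine (adjusted p = 0.0367), and ADE13 was 0.53 higher on tryptophan than on phenylalanine (adjusted p = 0.0484). All 3 missed the threshold with array weights (adjusted p = 0.0997, 0.26 and 0.111), and the ADE6 difference also with a replicate block (0.0678). Without the dye term the ADE6 (adjusted p = 0.174) and ADE13 (0.154) differences missed it. The ADE13 call ended in 28 of 40 fits that left out an array. The ADE1 call ended without citrulline array 2 (difference 0.47). The 2 arrays of citrulline correlated over all genes at 0.37 and those of arginine at 0.47.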

How the results depend on the processing

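No call of a member named in the report changed direction under any alternative run. Without the dye term, 15 tests were higher than urea in place of 26 and 6 lower in place of 9, 3 members varied among sources in place of 5 (ADE8 and ADE13 were lost), and member calls numbered 1 in place of 3 in the related pairs and 51 in place of 103 over all source pairs. Of 35 calls against urea, 14 ended. Estimates were the same in both fits for ADE13 on alanine (0.38, adjusted p = 0.0133 with and 0.126 without the term). They were also the same for ADE8 on citrulline (0.54, 0.0123 and 0.0557). ADE8 on tryptophan, with urea in Cy5 on both arrays, moved from 0.43 to 0.33. The cause was not tested. Without tryptophan and tyrosine, 2 members had a mean shift below urea in place of 1. Without methionine, a check chosen after seeing the data, 3 members varied and the ADE13 difference between tryptophan and phenylalanine ended (adjusted p = 0.053). With a replicate block instead of a dye intercept, 24 tests were higher and 8 lower, 5 members varied, 2 member calls were made in the related pairs and 97 over all source pairs, and the calls of ADE6 on citrulline, ADE1 on ornithine, ADE8 on tryptophan and ADE6 for citrulline minus arginine were lost and no other of the calls named. Array weights gave 32 higher and 9 lower calls and 118 member calls over all source pairs, but ended 6 of the 35 calls against urea and all 3 member calls in related pairs (adjusted p = 0.0997 to 0.26), with 2 others called there. Leaving out each array in turn gave 22 to 30 higher and 7 to 9 lower calls, 4 to 5 varying members, 4 to 6 mean shifts above urea and 1 to 1 below, 1 to 5 member calls in related pairs, with 1 without citrulline array 2 or arginine array 2 and 5 without tyrosine array 1, 86 to 144 member calls over all source pairs, and 0 to 0 class differences. Of 35 calls against urea, 3 held without either of their arrays, and all 35 kept their sign. The number of arrays limits these calls.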

Other observations

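Of the phosphoribosyl pyrophosphate synthetase genes, which make the starting compound, 1 of 70 tests over 4 genes was higher than urea and 15 lower, 11 of them of PRS2 (lowest on glutamate, -0.68). In histidine synthesis, which releases an intermediate of the purine route, 18 of 108 tests over 6 genes were higher and 5 lower. HIS4 rose on 4 of 16 sources tested, leucine (0.97 ± 0.13), tryptophan, tyrosine and threonine. Its highest fitted value was on methionine (1.13), where it was not tested. HIS1 rose on 7 of 20 sources, most on methionine (0.90 ± 0.12). In pyrimidine synthesis, 18 of 164 tests over 9 genes were higher and 17 lower, with URA10 higher on 6 of 11 sources tested and URA2 lower on 6 (-0.85 on GABA) and higher on tryptophan (0.97). Over all genes and sources 19.5% of tests passed.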
